A study of Mus musculus with 28 samples.

Results

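The kallikreins and Kazal-type inhibitors described here are Klk5, Klk7, Klk8, Klk10, Klk11, Klk13, Klk15, Spink5 and Spink6, chosen as proteases of skin shedding and the inhibitors that hold them in check. Their probes were found by platform symbol. This gave 11 probes for 8 of the 9 genes, among 25697 probes on the array. Klk11 had 2 probes, Klk13 had 3 and the other 6 genes 1 each, and Spink5 was not analysed here. All 11 probes passed the filter on dim probes, as did 12834 probes in all. Total RNA of mouse dorsal skin, labelled with biotin, was hybridised to 28 single-channel Illumina arrays. The groups were 6 K14-cre; Gab1fl conditional mutants and 6 controls at 15 days of age (P15), and 6 such mutants and 10 controls at 10 days (P10). Every animal had the mixed strain background C57/BL6;129Ola. K14-cre acts in basal keratinocytes of the epidermis and hair follicle, so skin cells that do not descend from these keep Gab1, an adaptor protein that passes on signals of receptor tyrosine kinases. The labels do not give the alleles that the controls carry, nor do they say whether replicates were separate animals. The p-values therefore reflect how these samples vary, which may be technical.

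Kallikreins of the epidermis are secreted serine proteases. They are made as inactive precursors in the granular layer, activate one another in a cascade, and cut the corneodesmosomes that hold the outermost cells together, so that these cells can be shed. Klk5 and Klk7 are the best known of them, and the inhibitor LEKTI, encoded by Spink5, restrains them. Loss of SPINK5 in humans causes Netherton syndrome, in which the skin barrier fails.

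Values below are normalized log2 signals, on which a step of 1 doubles the signal, and a probe counted as detected on an array where its detection p-value, which sets its signal against negative control beads, was below 0.01. Arrays had 8836 to 13610 detected probes and median raw signals of 53.2 to 172, and the P15 mutant replicate 5 held both the fewest detected probes and the highest median. The arrays lay on 4 slides. Slides 3 and 4 carried the P15 mutants, the P15 controls and 4 of the P10 controls. Slides 1 and 2 carried the P10 mutants and the remaining 6 P10 controls. Comparisons of mutant and control skin were therefore made within slides, where mutants always took the first 3 positions, so that genotype and position cannot be told apart. Gab1 was lower in all 12 mutant samples than in any control of the same age. Its signal was 9.91, 10.34 and 10.54 (lowest, median and highest) in P15 mutants, against 11.29, 11.63 and 11.85 in P15 controls, and the level in P15 mutants was 2.51-fold lower (limma adjusted p = 2.97e-09). It was 9.85, 9.97 and 10.17 in P10 mutants, against 11.02, 11.25 and 11.64 in the P10 controls on the same slides, a 2.47-fold lower level (limma adjusted p = 1.40e-08). In whole skin, fewer cells of a type and less RNA per cell cannot be told apart.

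The 7 kallikrein genes lie in one run on chromosome 7. In the RefSeq gene table of GRCm38.p6 the numbered genes of the run follow each other as Klk14, Klk13, Klk12, Klk11, Klk10, Klk9, Klk8, Klk7, Klk6, Klk5, Klk4 and Klk15. RefSeq promoters, each running from 250 bases before to 50 bases after the start site, were matched for all 7 kallikreins (8 entries, 2 of them for Klk11). Those of Klk15, the kallikrein that was lower in mutants, and of Klk10 and Klk13, which were higher in P15 mutants, are shown 5′ to 3′ with motif matches in capitals.
Klk15 promoter, chr7:43931425-43931724, + strand: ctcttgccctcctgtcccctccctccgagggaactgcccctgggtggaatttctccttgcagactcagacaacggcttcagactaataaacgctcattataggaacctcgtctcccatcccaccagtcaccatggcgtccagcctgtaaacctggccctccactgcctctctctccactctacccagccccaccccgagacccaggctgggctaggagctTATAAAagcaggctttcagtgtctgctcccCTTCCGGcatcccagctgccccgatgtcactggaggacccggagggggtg
Klk10 promoter, chr7:43780804-43781103, + strand: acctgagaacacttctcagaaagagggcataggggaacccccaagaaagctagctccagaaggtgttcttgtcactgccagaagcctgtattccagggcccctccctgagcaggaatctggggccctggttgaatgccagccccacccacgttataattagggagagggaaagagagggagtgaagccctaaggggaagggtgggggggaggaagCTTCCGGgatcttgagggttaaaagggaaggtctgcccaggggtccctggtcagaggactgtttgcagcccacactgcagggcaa
Klk13 promoter, chr7:43712317-43712616, + strand: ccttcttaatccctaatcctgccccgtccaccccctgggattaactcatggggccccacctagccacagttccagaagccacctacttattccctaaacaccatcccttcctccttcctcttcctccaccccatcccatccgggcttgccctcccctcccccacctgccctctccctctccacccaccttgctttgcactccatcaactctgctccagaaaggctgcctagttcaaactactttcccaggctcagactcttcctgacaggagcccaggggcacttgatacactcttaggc
Motifs were searched on both strands as TATAAA, as TGANTCA (the AP-1 site) and as CCGGAAG (a core bound by ETS factors). The Klk15 promoter held TATAAA 30 bases before its start site and, on the reverse strand, CCGGAAG beginning at the start site, and the 2 matches did not overlap. The Klk10 promoter held CCGGAAG on the reverse strand, 35 bases before its start site, and the Klk13 promoter held none of the 3 motifs in this window. Over all 32851 listed promoters of this length, a share of 13.6% held TATAAA, 7.81% TGANTCA and 8.86% CCGGAAG, and of the 8 kallikrein entries 1, 0 and 2 held them in that order. A match describes letters and does not show a bound site.

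In mutant skin at P15 the kallikreins moved apart: Klk15 and the inhibitor Spink6 were lower and were detected on none of the 6 mutant arrays, Klk10 and 2 of 3 Klk13 probes were higher, and Klk5, Klk7, Klk8 and Klk11 did not pass the test. At P10 Klk15 and Spink6 were again lower and no probe was higher. The count at P15 was 3 of 11 probes higher and 2 lower, where 19.5% of all tested probes passed in either direction, 8.94% higher and 10.6% lower. The count at P10 was 0 higher and 2 lower, against 17.5% of all tested probes in either direction, 8.66% higher and 8.83% lower. At an unadjusted p below 0.05, 7 of the 11 passed at P15 and 3 at P10, Klk8 among the latter. The share of all tested probes at this unadjusted cut is not given, here or for the unadjusted counts below. These counts therefore show nothing particular to the genes counted. The median log2 difference of the 11 probes was 0.31 at P15 and 0.04 at P10, beside 0.02 and -0.02 over all tested probes. These medians count each probe of Klk11 and Klk13 separately, so they do not describe a shift per gene. The P15 median is the value of Klk13 probe ILMN_3115315, detected on 1 of 6 mutant and 2 of 6 control arrays.

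**Figure D1:**
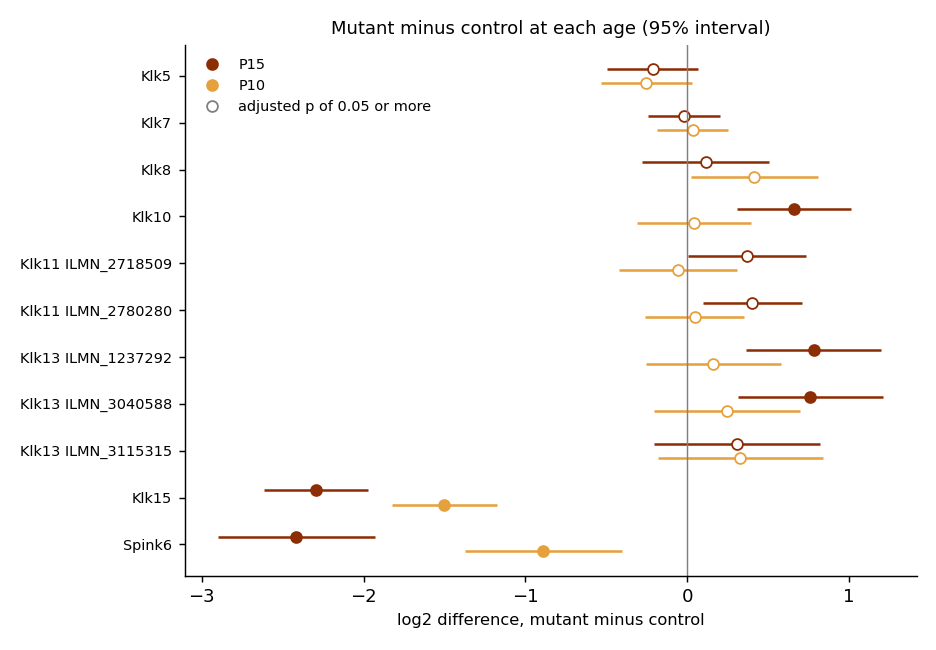
Log2 difference between mutant and control skin (horizontal axis, mutant minus control) for each of the 11 probes at P15 and at P10, with 95% intervals from the fit over all 28 arrays. Filled points have an adjusted p below 0.05. Klk15 and Spink6 lie left of 0 at both ages, and Klk10 and 2 Klk13 probes lie right of 0 at P15.

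Klk5, a trypsin-like protease that activates itself and the precursor of Klk7 and cuts corneodesmosomal proteins, was detected on all 28 arrays. Its signal was 10.09, 10.35 and 10.53 (lowest, median and highest) in P15 mutants, against 10.16, 10.53 and 10.85 in P15 controls. It was 9.19, 9.56 and 9.64 in P10 mutants, against 9.34, 9.62 and 10.36 in the P10 controls on the same slides. Both pairs of groups overlapped, and neither difference passed the test: -0.21 at P15 (95% interval between -0.49 and 0.07, limma adjusted p = 0.287) and -0.25 at P10 (between -0.53 and 0.03, limma adjusted p = 0.212).

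Klk7, the chymotrypsin-like protease of the stratum corneum that cuts corneodesmosin, was also detected on every array. It measured 12.95, 13.46 and 13.61 in P15 mutants, against 13.004, 13.38 and 13.75 in P15 controls. At P10 it measured 12.97, 13.03 and 13.18 in mutants, against 12.61, 13.08 and 13.18 in controls on the same slides. The mutant samples lay within or next to the range of the controls at both ages. The intervals of the difference, between -0.24 and 0.20 at P15 and between -0.19 and 0.25 at P10, give the changes that these samples leave possible (limma adjusted p = 0.923 and 0.869).

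Klk8, known as neuropsin, which works in the brain and is also made in upper epidermis, measured 9.73, 10.60 and 10.97 in P15 mutants, against 9.65, 10.53 and 10.90 in P15 controls. At P10 it measured 10.02, 10.37 and 10.99 in mutants, against 9.61, 10.04 and 10.44 in controls on the same slides. The P15 groups overlapped almost wholly, whereas all 6 P10 mutants lay above the mean of the controls on their own slide. The P10 difference was 0.42 with an unadjusted p of 0.0392 and did not pass (limma adjusted p = 0.137). It was 0.38 within slide 1, which passed alone (limma adjusted p = 0.0231), and 0.45 within slide 2, which did not (limma adjusted p = 0.103). It also passed when the P10 mutants and the P10 controls on the same slides alone were fitted (limma adjusted p = 0.00517). Over all tested probes 3670 passed in that fit and 5345 on slide 1 alone, against 2244 in the main fit.

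Klk11, a trypsin-like kallikrein found in epidermis and brain, was read by 2 probes that followed each other over the 28 arrays (Pearson r = 0.86 across arrays after slide means were removed, over samples of all groups). Probe ILMN_2718509 gave 7.90, 8.28 and 8.54 in P15 mutants, against 7.25, 7.88 and 8.51 in P15 controls. Probe ILMN_2780280 gave 7.84, 8.15 and 8.46 in P15 mutants, against 7.19, 7.79 and 8.30 in P15 controls. On both probes 5 of 6 P15 mutants lay above the mean of the controls on their slide, but the groups overlapped. The differences of 0.37 and 0.40 missed the threshold (limma adjusted p = 0.150 and 0.0565). Both passed with the suprabasal marker score in the fit (limma adjusted p = 0.0304 and 0.0368) and without P15 control replicate 3 (0.0408 and 0.0442). ILMN_2780280 also passed with median scaling (0.0432), with an offset of 50 (0.0493), and without P15 mutant replicate 6 (0.0314) or P15 control replicate 4 (0.0127). Within slide 3 the P15 differences of the 2 probes were 0.15 and 0.11 (limma adjusted p = 0.804 and 0.847). Within slide 4 they were 0.59 and 0.70 (limma adjusted p = 0.318 and 0.132), so neither slide alone passed. At P10 the pooled differences were -0.06 and 0.05 (limma adjusted p = 0.860 and 0.870).

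Klk10, first found in human breast epithelium and present in differentiating keratinocytes, was detected on all 28 arrays. The 6 P15 mutants measured 11.14, 11.01 and 10.82 on slide 4 and 10.43, 10.97 and 10.97 on slide 3, with a mean of 10.89 ± 0.25 (SD, n = 6). The 6 P15 controls measured 9.38, 10.17 and 10.69 on slide 4 and 10.31, 10.28 and 10.57 on slide 3, with a mean of 10.23 ± 0.46 (SD, n = 6). Every mutant was above the control mean of its slide, and 1 mutant on slide 3 lay inside the control range. Klk10 was 1.58-fold higher in P15 mutants (log2 difference 0.66, SE 0.17, limma adjusted p = 0.00767). The difference was 0.40 within slide 3 and 0.91 within slide 4, and neither slide alone passed (limma adjusted p = 0.383 and 0.149). With only the P15 mutants and P15 controls fitted, the adjusted p was 0.0573. At P10 the pooled difference was 0.04 (limma adjusted p = 0.899), made of 0.43 within slide 1, which passed alone (limma adjusted p = 0.0171), and -0.34 within slide 2, which pointed the opposite way. On slide 1 alone 5345 of all tested probes passed. The P15 difference was not shown to exceed that at P10 (0.61, limma adjusted p = 0.182).

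Klk13, a trypsin-like kallikrein, was read by 3 probes of which 2 gave a higher signal in P15 mutants. Probe ILMN_1237292 measured 6.44, 6.92 and 7.54 in P15 mutants (detected on 5 of 6 arrays), against 5.41, 6.33 and 6.87 in P15 controls (detected on 4 of 6). Probe ILMN_3040588 measured 6.55, 6.90 and 7.29 in P15 mutants (6 of 6), against 4.76, 6.24 and 6.77 in P15 controls (3 of 6). Both pairs of groups overlapped, with all 6 mutants above the control mean of their slide. The log2 differences were 0.78 (SE 0.20, limma adjusted p = 0.00725) and 0.76 (SE 0.22, limma adjusted p = 0.0151). Where a probe was not detected on an array, its signal there is only a bound, so it was also set to the lowest signal that any detected probe had on that array, where its own was lower. The 2 differences were then 1.43-fold and 1.33-fold (limma adjusted p = 0.0225 and 0.0289). The third probe, ILMN_3115315, was detected on 1 of 6 P15 mutant and 2 of 6 P15 control arrays and did not pass (0.31, limma adjusted p = 0.414). Within slide 3 and within slide 4 the differences of the first 2 probes kept their sign without passing, at 0.62 and 0.94 for ILMN_1237292 and at 0.39 and 1.14 for ILMN_3040588. With only the P15 mutants and P15 controls fitted, ILMN_3040588 no longer passed (limma adjusted p = 0.113). At P10 all 3 probes were above 0, between 0.16 and 0.33, and none passed. Within slide 1 alone ILMN_3040588 and ILMN_3115315 did (0.45 and 0.69, limma adjusted p = 0.0299 and 0.00145), against 0.05 and -0.03 within slide 2. Over all tested probes 5345 passed on slide 1 alone.

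**Figure D2:**
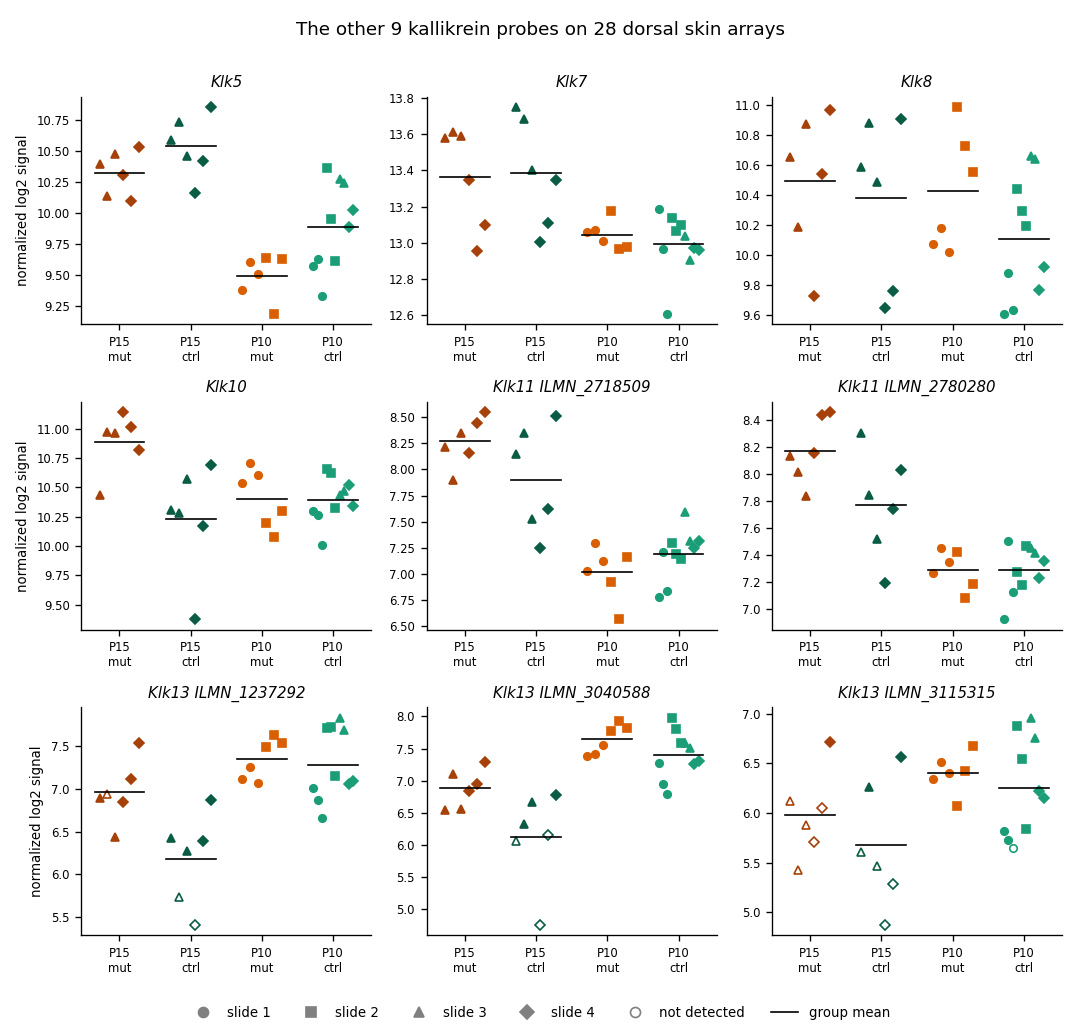
Normalized log2 signal (vertical axes) of the 9 probes for Klk5, Klk7, Klk8, Klk10, Klk11 and Klk13 in each sample, by group; mut is mutant and ctrl is control. Symbols mark the 4 slides, open symbols arrays where the probe was not detected, and bars group means. Klk10 and the first 2 Klk13 probes sit higher in P15 mutants than in P15 controls with overlap, and Klk7 lies between 12.61 and 13.75 everywhere.

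Klk15, a trypsin-like kallikrein best known from the human prostate, where it can activate the precursor of prostate-specific antigen, showed the smallest p of the kallikreins among the 11 probes. In P15 mutants it measured 5.04, 5.65 and 5.35 on slide 4 and 5.49, 4.57 and 5.65 on slide 3, and it was detected on 0 of 6 arrays. In P15 controls it measured 7.70, 7.75 and 7.85 on slide 4 and 7.34, 7.61 and 7.27 on slide 3, and it was detected on 6 of 6. The highest mutant lay below the lowest control, so the groups did not overlap, which also held for 4.13% of all tested probes in this direction. Klk15 was at least 2.50-fold lower in P15 mutants (limma adjusted p = 1.84e-07 with undetected signals at their bound). For this bound the mean over all P15 control arrays was set against the lowest detected signal on each mutant array. The fitted log2 difference of -2.30 (limma adjusted p = 5.22e-11) reads signals below detection and is not a bound.

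In P10 mutants Klk15 measured 5.49, 5.32 and 5.53 on slide 1, where it was detected on all 3 arrays, and 5.29, 5.08 and 5.40 on slide 2, where it was detected on none. The 6 P10 controls on these slides measured 6.46, 6.92 and 6.85 on slide 1 and 7.08, 7.06 and 6.75 on slide 2, and all were detected. These groups did not overlap either, as was the case for 5.77% of tested probes in this direction. The fitted difference was -1.50 (SE 0.16, limma adjusted p = 4.09e-07), at -1.29 within slide 1 and -1.71 within slide 2. With undetected signals at their bound the level was 2.27-fold lower in P10 mutants. The other 4 P10 controls, on slides 3 and 4, had Klk15 at 7.08, 7.15, 7.46 and 7.39, above every mutant array of either age. Klk15 averaged 7.59 ± 0.23 in P15 controls (SD, n = 6) and 7.02 ± 0.30 in all P10 controls (SD, n = 10), and the age change in controls did not pass (limma adjusted p = 0.207). Mutant skin of both ages was below control skin, and the mutant groups were not ordered, since 9 of their 12 arrays did not detect the probe.

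Spink6 encodes a Kazal-type inhibitor which in human skin inhibits KLK5 and KLK7. Its probe was detected on 0 of 6 P15 mutant arrays, with signals of 4.99, 4.64 and 4.98 on slide 4 and 4.87, 4.92 and 4.65 on slide 3. It was detected on 6 of 6 P15 control arrays, at 7.14, 7.38 and 7.08 on slide 4 and 7.49, 7.28 and 7.16 on slide 3. Every mutant signal was below every control signal, as on 4.13% of all tested probes in this direction. The size of the gap is not measured, since the lowest detected signal on a mutant array was as high as 6.97. Spink6 was at least 1.98-fold lower in P15 mutants (limma adjusted p = 0.00204 with undetected signals at their bound). The fitted difference was -2.41 over both slides (limma adjusted p = 4.22e-08), -2.50 within slide 3 and -2.33 within slide 4, all reading signals below detection in mutants.

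At P10 Spink6 varied much more between samples, and the slides differed. P10 mutants measured 5.42, 5.10 and 5.12 on slide 1 (detected on 1 of 3 arrays) and 6.73, 6.16 and 6.12 on slide 2 (3 of 3). P10 controls measured 5.42, 6.19 and 5.91 on slide 1 (2 of 3) and 6.93, 7.66 and 7.87 on slide 2 (3 of 3). On slide 2 each mutant lay below each control. On slide 1 the lowest control and 2 mutants were not detected, so their signals have no order, and pooled over slides the groups overlapped. The difference was -0.89 (SE 0.24, limma adjusted p = 0.0104), or 1.81-fold lower with undetected signals at their bound, at -0.63 within slide 1 and -1.15 within slide 2. The 4 P10 controls on slides 3 and 4 spread as widely, at 6.04, 6.71, 7.33 and 8.43. Over all 10 P10 controls the SD was 0.97, against 0.16 in P15 controls.

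**Figure D3:**
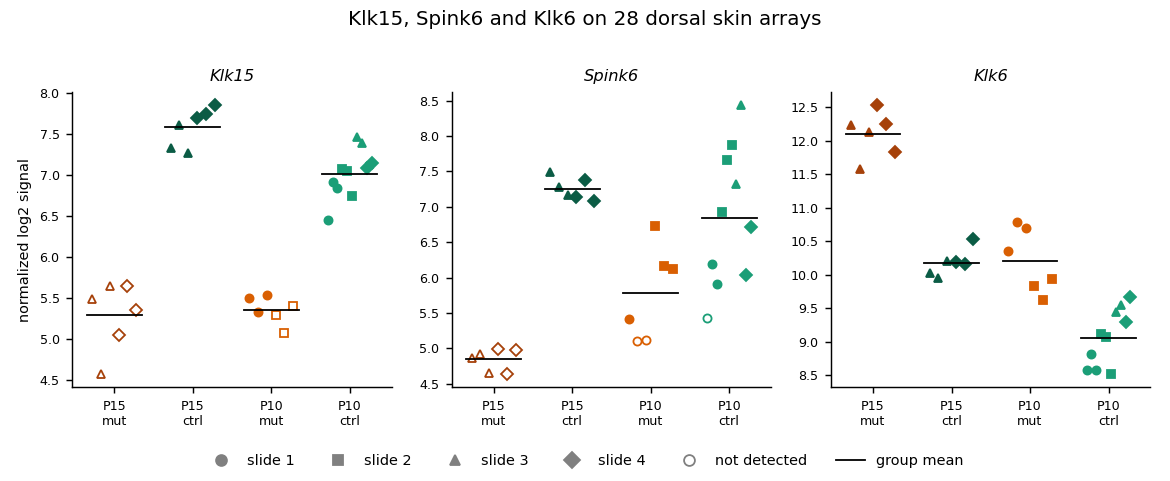
Normalized log2 signal (vertical axes, scaled for each gene) of Klk15, Spink6 and the neighbouring kallikrein Klk6 in each of 28 samples, by group; mut is mutant and ctrl is control. Symbols mark slides, open symbols arrays where the probe was not detected, and bars group means. All 6 P15 mutants are open for Klk15 and Spink6, whereas Klk6 is detected everywhere and lies higher in mutants at both ages.

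Whether the mutant effect itself differed between ages was tested as P15 effect minus P10 effect. Of the 11 probes 0 were called positive and 2 negative, beside 3.26% of all tested probes in either direction, 1.61% positive and 1.66% negative. They were Spink6 (-1.53, limma adjusted p = 0.0107) and Klk15 (-0.80, limma adjusted p = 0.0459). Both rest on P15 mutant signals below detection. With those signals at their bound the differences were -0.14 for Spink6 and -0.14 for Klk15 (limma adjusted p = 0.871 and 0.793), and with scaling by array medians in place of quantiles the Klk15 value was -0.02. A larger effect at P15 was thus not shown for either gene within the range that the arrays measured.

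With age, control skin showed higher Klk5 and Klk7 and lower Klk13. Of the 11 probes 2 were higher and 3 lower at P15 than at P10, where 21.2% of all tested probes passed, 10.5% higher and 10.7% lower. This comparison rests on the 6 P15 controls and the 4 P10 controls on slides 3 and 4. Klk13 probe ILMN_1237292 measured 5.41, 6.33 and 6.87 (lowest, median and highest) in P15 controls, against 7.06, 7.10, 7.83 and 7.69 in the 4 P10 controls. Probe ILMN_3040588 measured 4.76, 6.24 and 6.77 in P15 controls, against 7.26, 7.31, 7.59 and 7.50 in P10 controls. On these 2 probes no P15 control reached the lowest P10 control, a separation that 7.82% of tested probes showed in this direction. With undetected signals at their bound Klk13 was 1.96-fold lower on the first and 1.93-fold lower on the second in P15 controls (limma adjusted p = 0.000271 and 4.22e-05 on these bounded values, 0.000351 and 0.000498 on the fitted ones). Within slide 3 the fitted changes were -1.62 and -1.20, and within slide 4, where neither passed, -0.86 and -1.39. The third Klk13 probe fell too (-0.85, limma adjusted p = 0.0296), but not with undetected signals at their bound (-0.21, limma adjusted p = 0.483). Klk5 rose by 0.43 (1.35-fold, limma adjusted p = 0.0454) and Klk7 by 0.41 (1.33-fold, limma adjusted p = 0.0147). The Klk5 rise missed the threshold without any one of 11 control arrays (P15 control replicates 2, 3, 4 and 5 and P10 control replicates 1, 2, 3, 4, 5, 6 and 9, limma adjusted p up to 0.130). Of these, P10 control replicates 5, 6 and 9 lie on other slides and enter only through the shared spread and the adjustment. The Klk7 rise missed the threshold without P10 control replicate 3 (0.38, limma adjusted p = 0.0558) or replicate 4 (0.33, limma adjusted p = 0.0810). The change of the third Klk13 probe missed it without any one of 6 control arrays, P15 control replicates 1, 2, 4 and 6 and P10 control replicates 3 and 4. Of 16 tested suprabasal keratinocyte markers 5 were also higher in P15 controls and 0 lower, and their mean score ran between -0.14 and 0.34 in P15 controls, against -0.34 and -0.10 in the 4 P10 controls. With scaling by array medians the changes were 0.17 for Klk5 and 0.29 for Klk7, and neither passed. With the suprabasal score in the fit the changes were 0.01 for Klk5 and 0.23 for Klk7, and neither passed. Markers of other cell types were higher too: 3 of 8 of outer root sheath and companion layer, 3 of 11 of leukocytes, 2 of 6 of inner root sheath and 1 of 9 of basal keratinocytes, with 0 lower in each list. Of 8 hair shaft markers 3 were higher and 1 lower, and of 7 sebaceous gland markers 1 was higher and 1 lower. Lower in P15 controls were 8 of 12 of dermal fibroblasts, 6 of 7 of melanocytes, 6 of 15 of skeletal muscle, 4 of 7 of adipocytes and 4 of 6 of mast cells, with 0 higher in each list. With the muscle score in the fit Klk5, Klk7 and the third Klk13 probe no longer passed (limma adjusted p = 0.127, 0.0845 and 0.0523), and the first 2 Klk13 probes did. Over all tested probes 1365 passed for this age change with the suprabasal score and 2137 with the muscle score, against 2722 in the main fit. What part any of these cell types has in these changes was not tested.

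In mutant skin the age change, read across slides through the controls, was higher for both Klk11 probes and lower for Spink6, that is 2 higher and 1 lower of 11, where 11.5% of tested probes passed, 5.45% higher and 6.03% lower. Klk11 rose by 0.96 on ILMN_2718509 (1.94-fold, limma adjusted p = 0.0205) and by 0.77 on ILMN_2780280 (1.70-fold, limma adjusted p = 0.0263). Its signal in mutants was 7.90, 8.28 and 8.54 at P15, against 6.57, 7.08 and 7.30 at P10, on the first probe. On both probes every P15 mutant was above every P10 mutant, as on 9.48% of tested probes in this direction, but the ages lie on different slides and this ordering ignores the slide. In controls the same probes changed by 0.53 and 0.41 without passing (limma adjusted p = 0.0574 and 0.0788), and the age changes of the genotypes did not differ by the test (0.43 and 0.36, limma adjusted p = 0.403 and 0.404). In mutants neither Klk11 probe passed with scaling by array medians (0.69 and 0.50) or with the suprabasal score in the fit (0.62 and 0.63, limma adjusted p = 0.0981 and 0.0861), and with the muscle score ILMN_2718509 missed the threshold (limma adjusted p = 0.0505). For Spink6 the fitted change of -1.40 (limma adjusted p = 0.0109) has no fold, since no P15 mutant array detected it, and the lowest detected signal there averaged 6.27, above its P10 mutant mean of 5.77. With undetected signals at their bound it was -0.01.

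**Figure D4:**
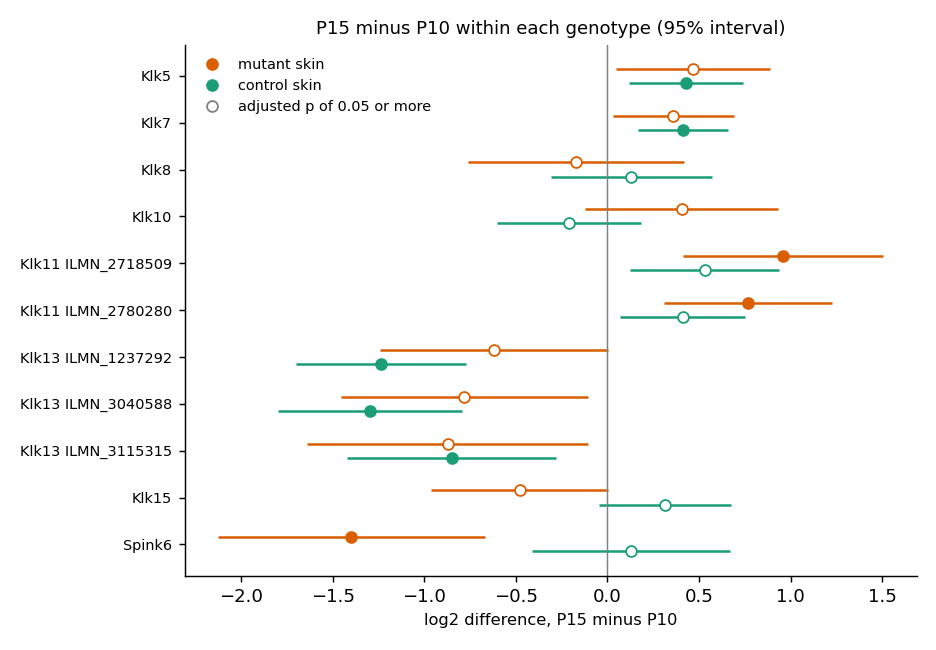
Log2 difference between P15 and P10 (horizontal axis, P15 minus P10) for each probe in mutant skin and in control skin, with 95% intervals. Filled points have an adjusted p below 0.05. Both Klk11 probes and Spink6 are filled in mutants, and Klk5, Klk7 and the 3 Klk13 probes in controls.

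Other kallikreins were mostly not detected on these arrays, which does not show that the genes are silent. Of 20 further kallikrein genes listed, 17 had probes and 1, Klk6, was bright enough to test. Klk4, the neighbour of Klk15, was detected on 0 arrays, as was Klk14, another protease of the epidermal cascade. Klk6, a trypsin-like protease known as neurosin, lies between Klk7 and Klk5. It measured 11.58, 12.18 and 12.53 in P15 mutants, against 9.95, 10.18 and 10.54 in P15 controls, and 9.62, 10.15 and 10.79 in P10 mutants, against 8.52, 8.70 and 9.11 in P10 controls on the same slides. At each age the mutants did not overlap the controls on their slides, and the share of all tested probes separated in this direction is not given here. The highest of the other P10 controls, at 9.66, passed the lowest P10 mutant. Klk6 was 3.77-fold higher in P15 mutants (limma adjusted p = 8.46e-09) and 2.68-fold higher in P10 mutants (limma adjusted p = 2.93e-06), while its neighbours Klk5 and Klk7 did not pass. Of 11 further Spink genes 3 were tested, with 0 past the threshold at either age and, at an unadjusted p below 0.05, 0 at P15 and 1 at P10. Spink14, detected on 6 of 28 arrays, differed by 0.36 at P15 and -0.34 at P10 (limma adjusted p = 0.195 and 0.224).

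Among proteases and inhibitors outside the families, calls at P15 were made in both directions. Of 20 tested proteases and activators 2 were higher and 3 lower in P15 mutants, and 1 higher and 6 lower in P10 mutants. Over all tested probes 19.5% passed at P15 and 17.5% at P10, so that the proteases' count at P15 is near this share. Ctse, the aspartic protease cathepsin E, was 2.28-fold lower at P15 and 1.70-fold lower at P10, and Prss8, the membrane-bound protease prostasin, was 1.41-fold lower at both. Prss27, a serine protease of stratified epithelia, was 2.25-fold higher at P15 (limma adjusted p = 2.05e-05). At P10 it differed by -0.19 without passing, and its effects at the 2 ages differed (1.36, limma adjusted p = 0.00218). Those of the protease Htra1, 1.60-fold higher at P10, differed the opposite way (-0.84, limma adjusted p = 0.00345). Of 16 tested inhibitors 6 were higher and 4 lower in P15 mutants, and 5 higher and 0 lower in P10 mutants. Higher ones included Slpi, the secretory leukocyte protease inhibitor (2.38-fold higher at P15 and, with 1 undetected signal at its bound, 1.74-fold at P10), and Wfdc18, another protein with the WAP fold (4.71-fold at P15 and 3.58-fold at P10). Serpinb6a was 1.37-fold higher at P15 and 1.28-fold higher at P10. Lower at P15 were Serpinb2 (1.68-fold), Serpina12 (1.42-fold), Spint2, an inhibitor of membrane-bound serine proteases (1.17-fold with undetected signals at their bound), and Serping1, the inhibitor of complement C1 (1.33-fold). Serping1 was 1.46-fold higher in P10 mutants, and its effects at the 2 ages differed (-0.96, limma adjusted p = 0.00380). The lists' median log2 differences were -0.17 for proteases and 0.21 for inhibitors at P15, and -0.17 and 0.21 at P10, beside 0.02 and -0.02 over all tested probes.

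Of 13 tested desmosome and corneodesmosome genes 0 were higher and 3 lower in P15 mutants, and 1 higher and 3 lower in P10 mutants, where 8.94% and 10.6% of all tested probes passed in these directions at P15 and 8.66% and 8.83% at P10. The desmosomal cadherin Dsg3 was 1.72-fold lower at P15 and 1.48-fold lower at P10 with undetected signals at their bound, and Dsg4, the cadherin of the hair cortex, 1.80-fold and 1.39-fold lower. Corneodesmosomal proteins that kallikreins are known to cut did not pass at either age. Cdsn, the corneodesmosin cut by Klk5 and Klk7, differed by 0.15 at P15 and -0.23 at P10 (limma adjusted p = 0.259 and 0.0802). The desmosomal cadherins Dsc1 and Dsg1b differed by -0.12 and 0.03 at P15 and by 0.05 and -0.21 at P10. Of 6 tested further substrates and receptors 2 were higher at P15, the cornified envelope proteins Hrnr (2.01-fold) and Rptn (1.69-fold), and 0 at P10, where 1 had an unadjusted p below 0.05.

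Markers of other cell types moved between the groups as well. Of 16 tested markers of suprabasal keratinocytes, the layers known to make epidermal kallikreins, 1 was higher and 2 lower in P15 mutants and 0 passed in P10 mutants, where 3 had an unadjusted p below 0.05. Of 15 skeletal muscle markers 1 was higher in P15 mutants and 9 in P10 mutants, and their score ran between 1.46 and 2.40 in P10 mutants, against -0.34 and 2.54 in P10 controls on the same slides. Higher in P10 mutants were also 10 of 12 dermal fibroblast, 6 of 6 mast cell and 5 of 7 adipocyte markers, with 0 lower in each list. In P15 mutants 6 of 7 melanocyte markers were higher and 1 lower, and of 8 hair shaft markers 5 were lower and 0 higher. Of 11 leukocyte markers 4 were lower and 1 higher in P15 mutants. Over all tested probes 8.66% were higher and 8.83% lower at P10, and 8.94% higher and 10.6% lower at P15. Klk15 and Spink6 passed at both ages with the muscle score or the suprabasal score in the fit. What part any of these cell types has in these results was not tested.

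Over the 28 arrays, after slide means were removed, the probes most like Klk15 were those of the uroplakin Upk1b (Pearson r = 0.97), the nicotinic receptor subunit Chrna4 (0.97), the lipocalin Lcn12 (0.96), Crip3 (0.96) and Fabp9 (0.96). The 5 most like Spink6 were Lcn12 (0.91), Chrna4 (0.91), Upk1b (0.90), Dio3, an enzyme that inactivates thyroid hormone (0.89), and Fam110c (0.88). Klk15 and Spink6 correlated at 0.89 in this way. With the group means removed as well the value was 0.22. Each probe was not detected on 9 of 28 arrays, where its signal is background. These points share their groups, so the values describe the arrays. Prss27 was among the 5 nearest probes of both Klk10 (0.75) and Klk11 (0.82), and for Klk13 the nearest was Metrn (0.86).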

How the data were processed

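Gene expression in dorsal skin was measured on single-channel Illumina arrays. Per the file headers, the deposited table gives each probe's signal on each array together with its detection p-value. These signals are linear intensity values that the authors deposited before normalization, as judged from array medians that differ. The submitters' processing notes name GenomeStudio without a version. Another deposited table of the authors' processed intensity values, whose making is not stated, served as an alternative: each of its 28 columns kept the rank order of its own raw array.

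Here signals were corrected with normexp from the detection p-values (limma 3.58.1 neqc in R 4.3.3, offset 16), brought to common quantiles and log2-transformed. Probes with a detection p-value below 0.01 on at least 6 arrays were tested (12834 of 25697). Symbols come from the platform annotation (23978 probes with 1 symbol, 0 with several, 1719 with none). lmFit and eBayes fitted 4 groups and 4 slides on all 28 arrays (21 residual degrees of freedom), and Benjamini-Hochberg adjustment ran over all tested probes, with a threshold of 0.05. Adjusted p-values are from these limma fits. Precision is limited by how many arrays each group has. The fit was tested on simulated data.

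Members and gene lists were chosen with earlier results of these data known. All member probes and Gab1 are named, and from each list up to 4 genes with the smallest p in a contrast. Cdsn, Dsc1, Dsg1b, Spink14, Klk4, Klk14, Spint2 and Serpina12 are named in addition, chosen with their values known. Likeness names the 5 probes of other genes with the highest correlation. Alternatives covered the processed values, scaling, offset, filter, slide term, array weights, a replicate block, 1 probe per gene, marker scores as covariates, single slides, subsets and leaving out each array. Setting undetected signals at their bound was added after seeing the data. Replicate numbers did not pair samples: the correlation of same-numbered deviations ran between -0.20 and 0.41 and was above 0.1 for 3 of 12 numbers.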

Additional observations from a re-analysis of the deposited data

Results flagged for a closer look

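Of 44 sets of one probe in one group, 2 held a sample far from the others, where chance alone marks about 1 in 20 such sets. Klk7 in P10 control replicate 7 measured 12.61, below the next P10 control at 12.91, a gap of 0.517 of the group's range. Klk13 probe ILMN_3040588 in P15 control replicate 1 measured 4.76, below the next P15 control at 6.06, a gap of 0.647 of the range, and it was not detected on that array.

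The mutant effect differed between P15 and P10 by the interaction test for Spink6 (-1.53) and Klk15 (-0.80). Both genes were detected on 0 of 6 P15 mutant arrays. With undetected signals at their bound the values were -0.14 and -0.14 and neither passed.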

How the results depend on the processing

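The lower Klk15 and Spink6 in P15 mutants passed under all 27 alternatives each, and in P10 mutants under 30 of 31 each. No value that passed changed sign, among 1668 values. Leaving out each array in turn gave 5 to 7 called member probes for the P15 effect, 2 to 2 for the P10 effect, 1 to 2 for the difference of effects, 2 to 6 for the control age change and 3 to 3 for the mutant age change. Over all tested probes these fits called 2030 to 2581, 1383 to 2619, 253 to 678, 2027 to 2806 and 1039 to 2197 in that order. With a replicate block, although the numbers did not pair samples, called probes were 0 for the P10 effect, 0 for the difference, 3 for the control age change and 0 for the mutant age change, and over all probes 5, 0, 1523 and 1. The difference of effects held 1 call with the authors' processed values, with no filter on dim probes, and with the muscle or the suprabasal score, and 0 with median scaling, no slide term and undetected signals at their bound. Over all probes these fits called 372, 349, 397, 309, 241, 227 and 380 in that order, against 419 in the main fit. The Klk15 difference missed the threshold without P15 mutant replicates 1 or 3, P15 control replicates 1, 2, 3 or 5, P10 mutant replicates 1, 2, 3, 4 or 6, or P10 control replicates 5, 6, 7 or 10 (adjusted p up to 0.0885). For the control age change the count was 3 with median scaling (3154 of all probes), no filter (2662), 1 probe per gene (2012), the suprabasal score (1365), only the groups compared (2588) and slide 3 alone (1448). It was 2 with the muscle score (2137), 8 with no slide term (5106) and 0 on slide 4 alone (442), against 5 in the main fit (2722). For the mutant age change the count was 7 with no slide term (5695 of all probes), 5 with array weights (3128) and 1 with the muscle score (864). For the P10 effect it was 4 with array weights (6002 of all probes) and 6 on slide 1 alone (5345). For the P15 effect it was 3 with only the groups compared (1418 of all probes), 2 on slide 3 alone (93) and 2 on slide 4 alone (583). Single slides hold fewer samples; the cause of the other moves was not tested. Median scaling moved the median of all probes to -0.23 for the control and -0.15 for the mutant age change. Without a slide term 5106 and 5695 probes passed for these 2 contrasts. Klk13, Klk15 and Spink6 lie near the detection limit, which bounds their folds.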
